A study of Mus musculus with 2 samples.

Results

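Epithelial cells of mouse kidney cortex with RNA of both Lcn2 and Krt19 were chosen from single-cell RNA-seq by their counts of unique molecular identifiers (UMIs, each standing for 1 captured RNA molecule). Barcodes under 200 genes, or with over 50% of UMIs from mitochondrially encoded (mt-) genes, were left out, and the rest are called kept. A kept barcode was a gated cell with at least 5 UMIs of Lcn2, at least 1 of Krt19, and 0 of Havcr1 (injured proximal tubule), Ptprc (leukocytes) and Atp6v1g3 (intercalated cells). The gate held 92 of 7308 kept barcodes (10804 deposited): 89 of 4091 from the I-PpoI library and 3 of 3217 from the wild-type library. Lcn2, Krt19 and the 3 genes at 0 chose these cells, so their levels are given as a description.

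The series compared kidney cortex of 12-week-old mice with podocyte-specific expression of I-PpoI, a homing endonuclease that cuts DNA at its recognition sites, with that of wild-type mice of the same age. Each group was 1 library of the droplet-based 10x Chromium 3' assay, made from tissue dissociated with collagenase and Pronase. The promoter that drives I-PpoI, the strain, and how many mice entered each library are not given in the labels. With 1 library per group no test between conditions was possible: the 95% intervals below cover counting error only, and a difference between libraries cannot be told apart from one between conditions.

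Lcn2 encodes lipocalin 2 (neutrophil gelatinase-associated lipocalin), a secreted protein that binds iron-carrying siderophores and is made by the distal nephron after kidney injury. Krt19 encodes a keratin of the intermediate filaments of simple and ductal epithelia. The distal nephron runs from the thick ascending limb, which takes up salt through Slc12a1 and secretes uromodulin (Umod), through the distal convoluted tubule with Slc12a3, to the collecting duct, whose principal cells take up water through aquaporin 2 (Aqp2).

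Promoter windows (250 bases before to 50 bases after the annotated start, RefSeq, mouse build GRCm38.p6) were read for 18 genes that the results turn on. Of these, 15 had an entry, and Krt19, Clu and Sox9 had none. They were searched on both strands for the AP-1 motif TGANTCA and for the NF-kB motif. The window of Lcn2, the secreted protein that defines the gate, is shown with those of Cldn4 and Sprr1a, the 2 genes with AP-1 matches. Capitals mark the matches.
Lcn2 (chr2:32387690-32387989, minus strand): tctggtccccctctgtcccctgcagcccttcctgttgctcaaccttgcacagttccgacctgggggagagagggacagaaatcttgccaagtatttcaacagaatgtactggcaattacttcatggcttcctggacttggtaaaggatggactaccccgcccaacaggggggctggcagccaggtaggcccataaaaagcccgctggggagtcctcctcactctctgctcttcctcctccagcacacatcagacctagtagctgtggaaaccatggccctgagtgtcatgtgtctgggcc
Cldn4 (chr5:134946885-134947184, minus strand): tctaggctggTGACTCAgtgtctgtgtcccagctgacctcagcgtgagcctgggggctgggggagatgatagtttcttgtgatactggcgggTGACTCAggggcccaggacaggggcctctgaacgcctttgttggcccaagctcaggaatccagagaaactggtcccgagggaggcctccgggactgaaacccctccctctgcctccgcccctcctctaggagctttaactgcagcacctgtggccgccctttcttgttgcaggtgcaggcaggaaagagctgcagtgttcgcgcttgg
Sprr1a (chr3:92485832-92486131, minus strand): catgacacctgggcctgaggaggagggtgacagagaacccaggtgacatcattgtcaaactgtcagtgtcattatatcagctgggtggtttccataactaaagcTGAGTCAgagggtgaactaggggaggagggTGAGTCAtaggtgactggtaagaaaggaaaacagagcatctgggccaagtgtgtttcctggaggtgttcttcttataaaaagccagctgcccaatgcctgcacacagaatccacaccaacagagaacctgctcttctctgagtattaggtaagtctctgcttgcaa
Cldn4 and Sprr1a each held 2 AP-1 matches, Krt18 held an NF-kB match, and the Lcn2 window held neither motif. Over all 32851 windows of this length, 7.81% held an AP-1 match and 8.46% an NF-kB match, so matches in 2 and 1 of 15 genes are a description of these letters and not of binding.

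Gated cells were 2.18%, 1.75 to 2.67% of kept barcodes in the I-PpoI library and 0.0933%, 0.0192 to 0.272% in the wild-type library (exact binomial intervals), a ratio of 23.3 (7.73 to 115). Among kept barcodes with Epcam, a pan-epithelial adhesion gene, and without Ptprc, they were 87 of 406 against 3 of 354. Depth moved with the library: kept barcodes had a median of 6656 against 3483 UMIs and 3.33% against 14.5% mt- UMIs. When each barcode was thinned to 2000 UMIs before the gate, which left out 17.9% and 30.0% of kept barcodes as shallower, 34 of 3359 (1.01%) and 0 of 2253 were in the gate, the latter allowing a share of up to 0.133% (3 counts of the total, as for other counts of 0).

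The I-PpoI gated cells had from 991 to 107651 UMIs (median 18551), a median of 4457 genes and a median of 7.50% mt- UMIs. Their Lcn2 ran from 5 to 1889 UMIs per cell with a median of 75, and their Krt19 from 1 to 172 with a median of 3. The 3 wild-type gated cells held 39, 45 and 54 Lcn2 UMIs and 2, 1 and 6 Krt19 UMIs, in 45510, 79763 and 14957 UMIs. Lcn2 was thus far from its limit in most cells, while Krt19 was near it: 20 of the 89 cells had a single Krt19 UMI. With the other limits met, 6 I-PpoI cells stood just inside at 5 or 6 Lcn2 UMIs and 6 just outside at 3 or 4. Free Lcn2 RNA in droplets was read from endothelial barcodes, which should lack it: Lcn2 was seen in 10 of 349 (2.87%, median 4837 UMIs) and 1 of 652. These barcodes were chosen with Krt19 at 0, so free Krt19 RNA could not be read from them. The 2 libraries shared 6 deposited barcodes, 3 of them kept in both. The barcode of 1 I-PpoI gated cell was among the 6.

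**Figure D1:**
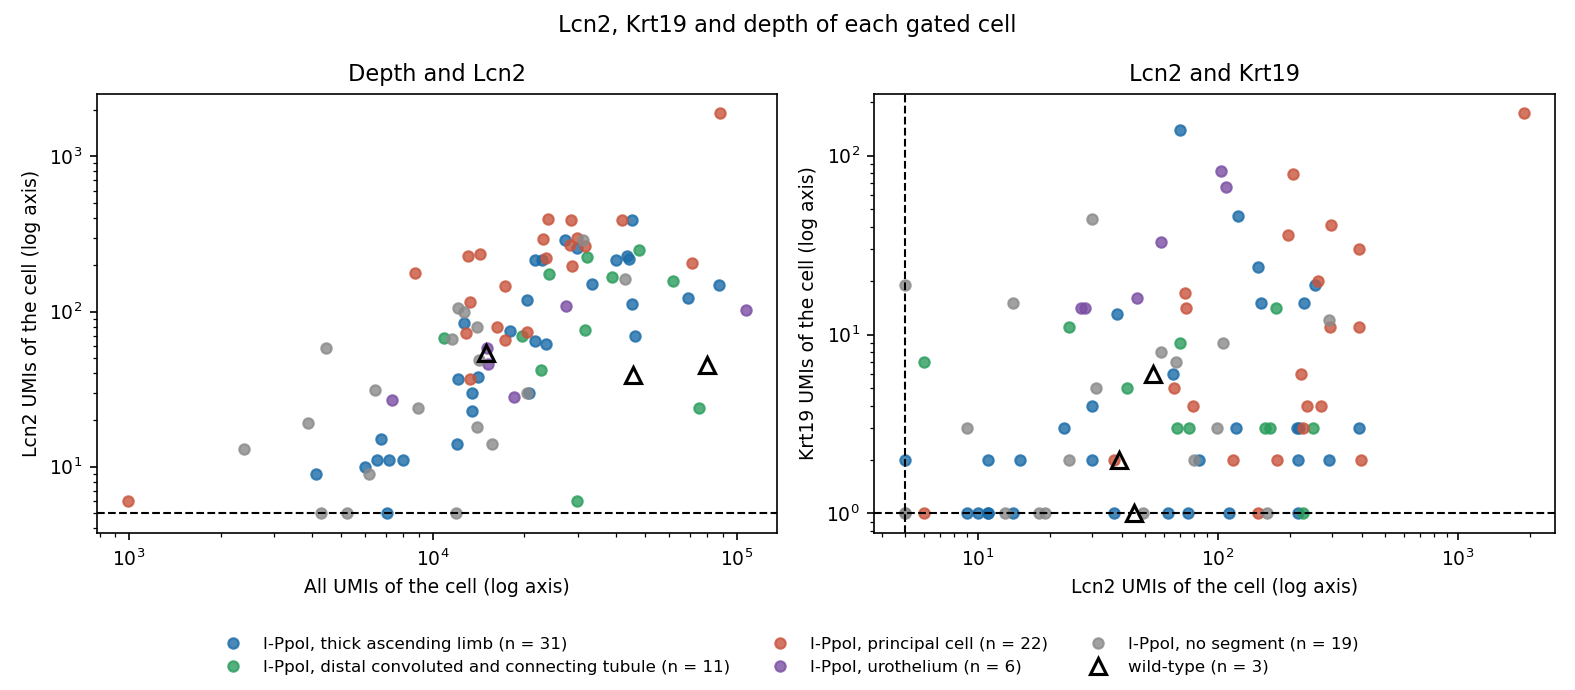
Each point is 1 gated cell, coloured by its assigned segment; triangles are the 3 wild-type cells. The left panel plots Lcn2 UMIs against all UMIs of the cell and the right panel Krt19 UMIs against Lcn2 UMIs, on log axes with dashed lines at the limits of 5 and 1. Lcn2 spans 5 to 1889 UMIs and is mostly higher in deeper cells, and 20 I-PpoI cells lie on the Krt19 limit.

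The label of these cells, injured distal epithelium, was checked against markers. All 8 pan-epithelial genes were present and each of the 89 I-PpoI cells held UMIs of that list. Wfdc2, a secreted protease-inhibitor-like protein, was found in 89 of 89 cells, and Clu, the secreted chaperone clusterin, in 87 of 89. Sprr1a, a cornified-envelope protein of stratified epithelia, was found in 18 of 89 cells, and 1 cell held 50.2% of its 582 UMIs. Markers of the following lineages were sparse. The 10 genes of the proximal tubule list summed to 14 UMIs, with Slc34a1, Slc5a2, Slc5a12 and Slc22a6 at 0. The T cell list summed to 2, the neutrophil list to 10, and the macrophage list to 295 of 2177927 UMIs, 182 of them Apoe. The parietal epithelium and thin limb lists were not among these and are given below against other cells of the library. In endothelial barcodes the shares with a UMI were 8.02% for Clu and 4.30% for Wfdc2 in the I-PpoI library, well under those in the gate.

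Each gated cell was assigned to the marker list (thick ascending limb, distal convoluted and connecting tubule, principal cell, urothelium) with the most UMIs, if that sum was at least 3 UMIs from at least 2 genes. Of the 89 I-PpoI cells, 31 (34.8%, 25 to 45.7%) went to thick ascending limb, 22 (24.7%) to principal cell, 11 (12.4%) to distal convoluted and connecting tubule, 6 (6.74%) to urothelium and 19 (21.3%) to none. So 64 of 89 (71.9%) carried a distal tubular identity by these lists. Of the 19 cells without a segment, 9 had a highest sum under 3 UMIs. The other 10 reached 3 UMIs but had a tie or too few genes in the highest list. Such cells can still hold segment markers, as a cell with 43 Slc12a1 UMIs did. The segments' transporters rarely met in a cell: no cell held UMIs of both Slc12a1 and Aqp2 or of both Slc12a3 and Aqp2, and 1 held both Slc12a1 and Slc12a3. Umod was less separate: 12 of the 15 cells with Slc12a3 and 3 of the 13 with Aqp2 also held Umod, which 1.72% of endothelial barcodes of that library held. All 3 of these transporter genes were at 0 in 38 cells. The assignment is a range of a score: in 10 cells a second list reached at least 50% of the highest sum. Setting the gate on counts thinned to 2000 UMIs moved the make-up, to 55.9% principal cell and 5.88% thick ascending limb of 34 cells. Their segments were assigned on all counts. The limits at 0 were read on thinned counts too, so these cells need not all lie in the main gate.

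By the urothelium list, the label did not hold for the 6 urothelium-assigned cells. That list includes Krt5, Krt14 and Krt15, so the levels of these keratins in them describe how they were assigned. Sprr1a is not in the list. These 6 cells held all 545 Krt15, 260 Krt5 and 151 Krt14 UMIs of the gated cells, keratins of basal layers of stratified epithelia, and 496 of the 582 Sprr1a UMIs. Single cells weighed in these sums: the highest cell gave 81.2% of the Krt5 and 67.0% of the Krt15 UMIs. Sprr1a was at 0 in the 19 cells without a segment. These cells were counted in the gate and left out of the comparisons by segment.

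To set the gate against the epithelium of the same segment, kept Epcam-positive barcodes without Ptprc, Havcr1 and Atp6v1g3 were assigned by the same lists. Barcodes outside the gate also needed more UMIs of their highest list than of the proximal tubule list. Gated cells entered by their segment alone, without the Epcam and proximal tubule limits. The effect of these limits on the shares was not tested. This comparison was chosen after the make-up of the gate had been seen. In the I-PpoI library 31 of 83 thick ascending limb cells (37.3%, 27.0 to 48.7%) were in the gate, against 0 of 160 in the wild-type library. The shares were 11 of 39 (28.2%, 15 to 44.9%) against 0 of 35 in distal convoluted and connecting tubule. Among principal cells they were 22 of 30 (73.3%, 54.1 to 87.7%) against 3 of 43 (6.98%, 1.46 to 19.1%).

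Lcn2 and Krt19 divided the segments differently. At least 5 Lcn2 UMIs were held by 73 of 83 thick ascending limb cells of the I-PpoI library (88.0%) and 2 of 160 of the wild-type library (1.25%). In principal cells the same limit was met by 28 of 30 (93.3%) and by 19 of 43 in wild type (44.2%), so Lcn2 RNA was common in wild-type collecting duct. In distal convoluted and connecting tubule the counts were 23 of 39 and 0 of 35. Krt19 was the narrower gene: 32 of 83 against 4 of 160 thick ascending limb cells, 15 of 39 against 0 of 35 distal convoluted and connecting tubule cells and 22 of 30 against 5 of 43 principal cells held a UMI. Wild-type cells of these segments outside the gate had medians of 9955, 12823 and 10820 UMIs, and I-PpoI cells outside the gate 5388.5, 8256 and 4996, against 20754, 31726 and 21784 in the gate, so the cells in which Krt19 went unseen were also the shallower ones.

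**Figure D2:**
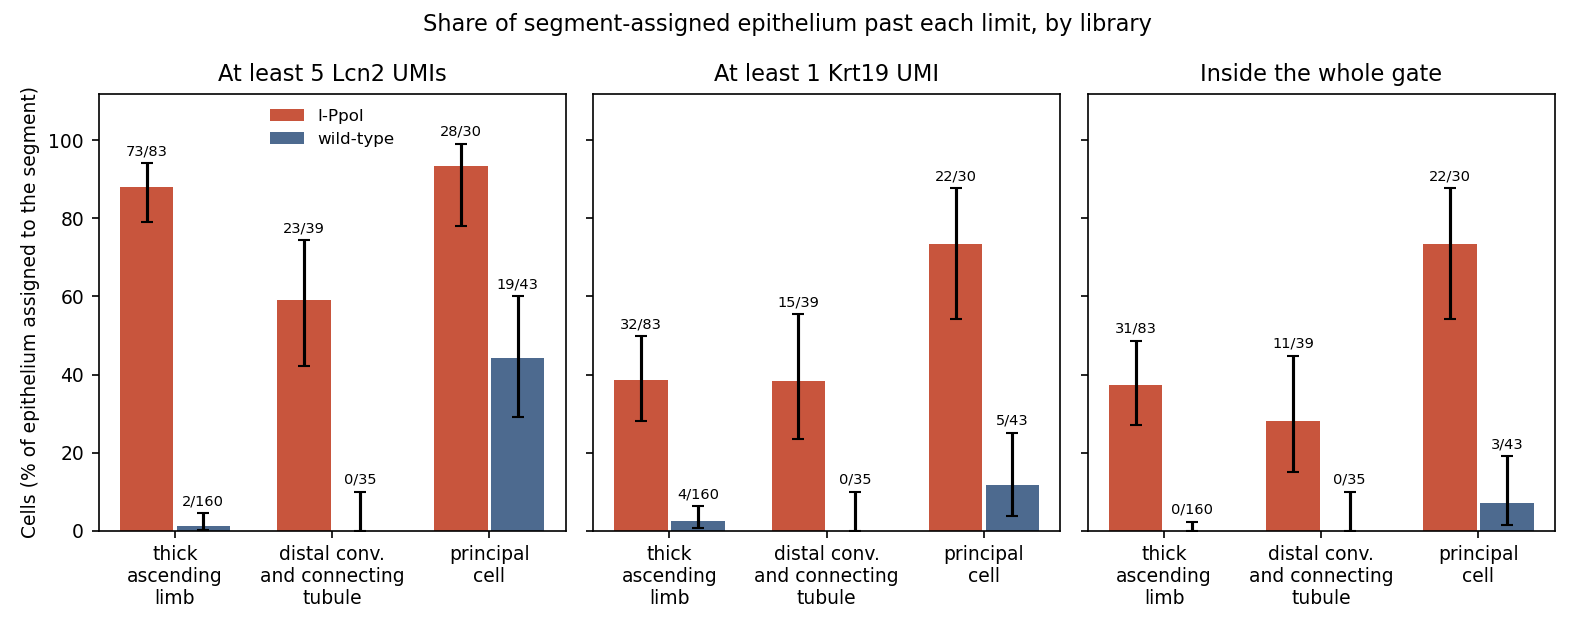
Bars give the percentage of segment-assigned epithelium with at least 5 Lcn2 UMIs, with at least 1 Krt19 UMI, and inside the whole gate, for the I-PpoI and the wild-type library. Error bars are exact 95% binomial intervals and the fractions are cells. All 9 I-PpoI shares lie above the wild-type ones, and wild-type principal cells are the highest wild-type segment by Lcn2 (19 of 43) and by Krt19 (5 of 43).

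In the thick ascending limb, the 31 gated I-PpoI cells had higher RNA of injury and keratin genes and lower RNA of the segment's own products than the 160 wild-type cells of that segment. UMIs were summed per arm and scaled to CPM, the UMIs of a gene in every 1000000 UMIs of the arm. A gene was measured with at least 20 UMIs over both arms and counted as higher or lower past 2-fold. Of 9057 measured genes 1851 (20.4%) were higher and 851 (9.40%) lower. These 2 arms differed in mt- UMIs (medians 7.76% and 31.3%), and when mt- genes and Lcn2 were left out of the totals the split became 938 higher and 1339 lower. By median-of-ratios scaling it was 1032 and 1268. Free proximal tubule RNA also differed: that marker list stood at 7.66 CPM in the gated cells and 419 CPM in the wild-type cells. The part of these in the gene differences was not tested beyond the scalings given here.

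Of the tubular injury and repair list, 21 of 23 genes were measured in thick ascending limb, 20 were higher and 1, the cadherin Cdh6, was lower (26.8 against 63.8 CPM). The list's median log2 ratio was 2.48, against 0.36 over all measured genes, and it was 1.54 among cells with at most 25% mt- UMIs, where 47 wild-type cells were left. Clu stood at 2025 against 56.8 CPM (ratio 35.6, 29.6 to 43.2). Thick ascending limb cells of the I-PpoI library outside the gate lay between, at 921 CPM. S100a6, a calcium-binding protein of stressed and growing cells, stood at 5641 against 182 CPM (ratio 31.0, 27.9 to 34.4), and at 1094 CPM in I-PpoI cells outside the gate. Anxa1, a phospholipid-binding annexin, had 278 against 4 UMIs (ratio 190.4, 73.5 to 704). Sox9, a transcription factor of tubular regeneration, had 46 against 5 UMIs (ratio 25.2, 10.1 to 81.3). Each of these genes kept the gated cells above both other groups of the same segment. Spp1 (osteopontin, a secreted phosphoprotein) and Wfdc2 did not: Spp1 stood at 30864 CPM in the gate, 37497 in I-PpoI cells outside it and 2172 in wild type, and Wfdc2 at 5008, 5154 and 1190.3 CPM. Spp1 RNA was also in 43.6% of endothelial barcodes of the I-PpoI library and in 7.21% of those of the wild-type library, and the part of free RNA in its levels was not tested.

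The keratin and junction genes of gated thick ascending limb cells followed. Krt8 and Krt18, partner keratins of simple epithelia, stood at 1073 against 68.0 CPM (ratio 15.8, 13.2 to 18.9) and 694 against 32.1 CPM (ratio 21.6, 16.8 to 28.2). A single cell held 465 of the 841 Krt8 and 237 of the 544 Krt18 UMIs, and without it they stood at 509.8 CPM (ratio 7.50) and 416 CPM (ratio 13.0). Krt7, which wild-type cells of the segment also hold, was 3.80 times as high (772 against 203 CPM). The tight junction genes Cldn3 (ratio 21.4, 15.4 to 30.4), Cldn4 (ratio 10.2, 6.96 to 15.4) and Cldn7 (ratio 4.71, 4.01 to 5.54) were higher, while Cldn16 and Cldn19, which form the segment's paracellular calcium and magnesium pore, had log2 ratios of 0.40 and 0.12. Cldn16 and Cldn19 are also in the list that assigned cells to this segment. Sfn, the epithelial 14-3-3 sigma protein, stood at 367 against 19.1 CPM, and the mucin Muc1 at 316 against 29.3 CPM. Without the cell that held most UMIs of the gene, Sfn stood at 241 CPM and Cldn4 at 6.77 times wild type. Fn1 (fibronectin) and the matrix protease Mmp7 were at 0 in wild type and had 66 and 55 UMIs in the gated cells, at least 60.3-fold higher and at least 50.2-fold higher when the absent arm was set to 3 UMIs, but in 13 and 7 cells, with 31 and 46 of these UMIs in a single cell.

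The transport genes of these cells moved the other way. Of the distal salt transport list, 13 of 20 measured genes were lower and 1 higher (Trpm6), with a median log2 ratio of -1.37. Slc12a1, the apical Na-K-2Cl cotransporter, stood at 1651 against 6607 CPM (interval of the ratio 0.236 to 0.265), and Umod at 4648 against 14532 CPM (ratio 0.320, 0.309 to 0.331). Kcnj1, the potassium channel that recycles potassium for that cotransporter, had a log2 ratio of -1.34. Egf, the growth factor precursor made by this segment, was nearly absent: 4 UMIs in 3 of 31 cells against 15859 in 138 of 160, or 5.10 against 7385 CPM (ratio 0.000691, 0.000188 to 0.00177). I-PpoI cells of the segment outside the gate had 179.8 CPM of Egf, also under wild type. Slc12a1, Umod, Kcnj1 and Egf are in the list that assigned cells to this segment in both libraries. A gated cell that had lost them could have gone to another list or to none. The part of this rule in the differences was not tested. Kl (klotho, the co-receptor for FGF23) had 3 against 497 UMIs and the secreted Wfdc15b 73 against 5111 UMIs. Hbegf, another ligand of the EGF receptor, was higher (195 against 34.9 CPM, ratio 5.59, 4.21 to 7.47).

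Genes of oxidative phosphorylation were lower in gated thick ascending limb cells: 18 of 20 nuclear-encoded subunits (median log2 ratio -1.27) and 12 of 13 mitochondrially encoded genes (-2.19), with Ppargc1a, a coactivator of mitochondrial biogenesis, at -1.63. The mt- share chose the kept barcodes and differed between these arms. The nuclear-encoded median was -0.99 among cells with at most 25% mt- UMIs and -1.64 with mt- genes left out of the totals. Immediate early and heat shock genes were higher in 13 of 16 (median 1.41), with Jun at 1013 against 203 CPM and Atf3 at 229.7 against 49.8 CPM, but the median was 0.25 among cells with at most 25% mt- UMIs, and in wild type these UMIs came from few cells (Atf3 in 10 of 160). Of p53 targets 8 of 19 were higher and none lower, led by the cell cycle inhibitor Cdkn1a (117 against 36 UMIs, ratio 8.90, 6.08 to 13.3) and the apoptosis gene Pmaip1 (23 against 1 UMIs, ratio 63.0, 10.2 to 2596), while Mdm2, the feedback regulator of p53, had a log2 ratio of -0.07. The p53 median was 0.82, against 0.36 over all measured genes, and was 0.41 among cells with at most 25% mt- UMIs, 0.45 with mt- genes and Lcn2 left out of the totals and 0.50 by median of ratios. Interferon response genes split, 4 higher and 4 lower of 14. Sod2, the mitochondrial superoxide dismutase, was the lower gene of an NF-kB list in which 5 of 10 were higher, with Nfkbiz at 2.63. Among distal transcription factors Elf3, of epithelial stress, was higher (2.45), and Esrrb, an orphan nuclear receptor of the segment, lower (2 against 86 UMIs).

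**Figure D3:**
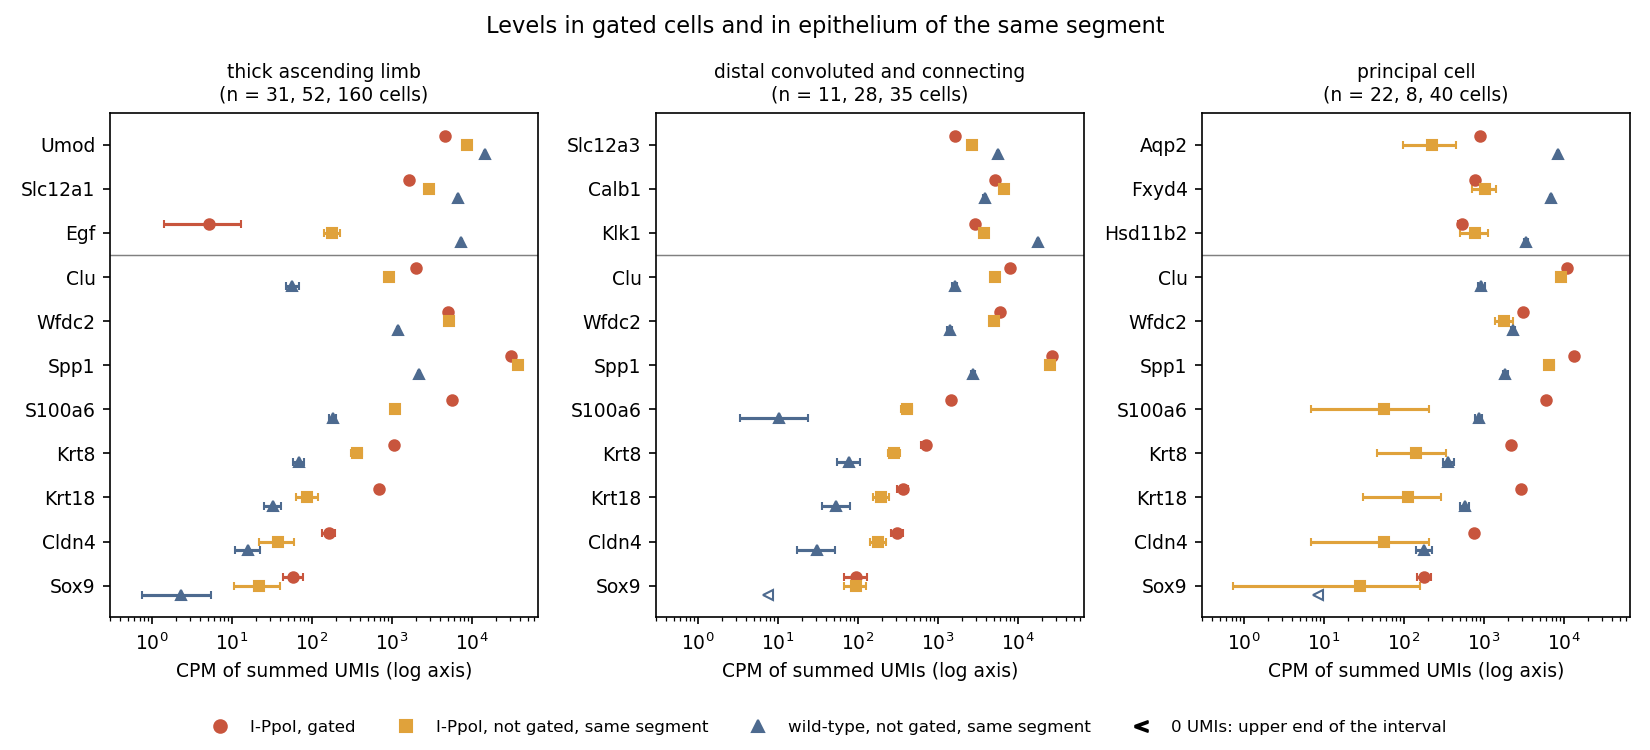
Points give the CPM of summed UMIs (log axis) with exact 95% Poisson intervals, for gated I-PpoI cells, I-PpoI cells of the same segment outside the gate, and wild-type cells of the same segment outside the gate. Genes above the grey line are segment products and members of the lists that assigned the cells. In each panel they lie lower in gated cells than in wild type (Egf 5.10 against 7385 CPM), except Calb1, and Clu, S100a6, Krt8, Krt18, Cldn4 and Sox9 lie higher.

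In distal convoluted and connecting tubule the same 2 sides appeared in 11 gated cells against 35 wild-type cells, with less depth (811 or 15.6% of 5204 measured genes higher, 404 or 7.76% lower, and 531 and 630 by median-of-ratios scaling). All 19 measured genes of the injury and repair list were higher (median log2 ratio 2.71), though 21 of the 28 Cdh6 UMIs came from 1 cell, without which Cdh6 was not past 2-fold (log2 ratio 0.87). Clu, already present in this segment in wild type, stood at 7895 against 1619 CPM (ratio 4.88, 4.51 to 5.28). S100a6 stood at 1438 against 10.3 CPM (ratio 139.6, 59.5 to 431, and 86.6 without its highest cell), and Anxa1 and Sox9, at 0 in wild type, had 84 and 37 UMIs. Slc12a3, the thiazide-sensitive NaCl cotransporter, stood at 1615 against 5649 CPM (ratio 0.286, 0.262 to 0.312), and Klk1, tissue kallikrein, at 2923 against 17894 CPM (ratio 0.163, 0.154 to 0.174, and 0.107 without its highest cell). Pvalb, a calcium buffer of the early part of the segment, had 0 against 329 UMIs (at least 89.1-fold lower). Calb1, the calcium buffer of the later part, was not lower, at 5220.5 against 3848 CPM (ratio 1.36, 1.27 to 1.45). The shares of early and late cells in the arms were not tested. Slc12a3, Klk1, Pvalb, Calb1 and Sgk1 are in the list that assigned cells to this segment in both libraries. A cell low in the others could stay in the segment by its Calb1, and the part of this rule was not tested. Of the salt transport list 9 of 20 were lower and 1, the kinase Sgk1, higher, but 60 of its 64 UMIs came from 1 cell, and without that cell it was lower (log2 ratio -1.90). Matrix genes were higher in 10 of 11 measured, but the 41 Mmp7 UMIs came from 1 cell. Of p53 targets 2 of 12 were higher and 2 lower, and of immediate early and heat shock genes 5 of 17 were higher and 2 lower.

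The 22 gated principal cells were set against 40 wild-type principal cells, the arms closest in mt- UMIs (medians 7.53% and 11.1%). Of 6142 measured genes 738 (12.0%) were higher and 769 (12.5%) lower. Injury and repair genes were higher in 14 of 19 and lower in none (median log2 ratio 2.07). Clu stood at 10990.2 against 931 CPM (ratio 11.8, 10.7 to 13.1), Sox4, a transcription factor of progenitor states, had a log2 ratio of 3.17, and Sox9 had 101 against 0 UMIs. Wfdc2 was not past 2-fold, at 3101 against 2311 CPM. The secreted inhibitor Spink12 stood at 1125 against 9.02 CPM (ratio 125, 48.5 to 459), in 14 of 22 cells against 4 of 40, and at 637 CPM without its highest cell. Sprr2f, a small proline-rich protein of stratified epithelia, had 542 against 0 UMIs in 11 cells, Pigr, the transporter of secreted antibodies, 123 against 0 UMIs in 10 cells, and the neutrophil chemoattractant Cxcl5 87 against 0 UMIs in 6 cells. Single cells held 200 of these Sprr2f, 96 of the Pigr and 76 of the Cxcl5 UMIs. Defb1, the beta-defensin of the distal nephron, was lower (494 against 2977 CPM, ratio 0.166, 0.145 to 0.189).

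The water and salt transport genes of principal cells were mostly lower. Of 16 measured genes of the transport list 13 were lower and none higher (median log2 ratio -1.66). The list median was -1.12 with equal weight per cell and -1.17 with the gate set on counts thinned to 2000 UMIs. The deepest gated cells of this arm, with 87855 and 71264 UMIs, had Aqp2 at 0 and weigh most in these sums. Aqp2 stood at 883 against 8398 CPM (ratio 0.105, 0.0956 to 0.115) and was seen in 11 of 22 gated cells against 39 of 40. Fxyd4, a regulator of the sodium pump, stood at 779 against 6950.2 CPM (ratio 0.112, 0.101 to 0.124). Hsd11b2, the enzyme that keeps glucocorticoids off the mineralocorticoid receptor, had a log2 ratio of -2.68, the vasopressin receptor Avpr2 -3.19, the sodium channel subunit Scnn1g -1.90 and the aldosterone-responsive kinase Sgk1 -2.96. Apart from Sgk1, which is in the distal convoluted and connecting tubule list, these genes also chose the principal cells in both libraries. A gated cell that had lost all of them could have been left without a segment or gone to another list. Cdkn1a had 94 against 1 UMIs, in 15 of 22 cells against 1 of 40, and p53 targets were higher in 8 of 15 (median 1.03), with Mdm2 at -0.11. With equal weight per cell that median was 0.29. Immediate early and heat shock genes were higher in 11 of 17, with Atf3 at 378 against 22.6 CPM (220 CPM without its highest cell). Oxidative phosphorylation subunits were lower in 4 of 20 (median -0.58). Elf3 was higher in these cells as well (2.75), and Elf5, a factor of principal cell identity, lower (12 against 54 UMIs). Iron and redox genes went both ways, 4 of 13 measured higher and 3 lower, with Mt2 (a metallothionein) at 3.59 and Ftl1 (ferritin light chain) at 1.63, and Tfrc, the transferrin receptor, at -3.77.

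Across the sub-groups of the gate the markers differed in level. Lcn2, which chose the cells, stood at 4184 CPM in the thick ascending limb cells, 3192 in the distal convoluted and connecting tubule cells, 10679 in the principal cells, 1934 in the urothelium-assigned cells and 4468 in the cells without a segment. Clu stood at 2025 CPM in the thick ascending limb cells, 7895 in the distal convoluted and connecting tubule cells, 10990.2 in the principal cells, 3001 in the urothelium-assigned cells and 3882 in the cells without a segment. It was at 56.8, 1619 and 931 CPM in the 3 wild-type segments, so all 5 sub-groups lay above each of them. S100a6 stood at 5641 CPM in the thick ascending limb cells, 1438 in the distal convoluted and connecting tubule cells, 6032 in the principal cells, 9735 in the urothelium-assigned cells and 9019 in the cells without a segment. Spp1 was highest in the thick ascending limb cells (30864 CPM) and lowest in the urothelium-assigned cells (7602 CPM). Of 787 genes with at least 100 CPM in every sub-group, 19 were also at least 2-fold above the highest wild-type segment, a rule chosen after values were seen. They included Tmsb10, an actin-sequestering thymosin (538.5 CPM or more in every sub-group against 69.9 or less), Rbm3, a cold-inducible RNA-binding protein (512 against 81.2), Klf6, an injury-induced transcription factor (413 against 110.5), the tubulin Tubb5, the actin-bundling Tagln2, the stress factor Atf3, and the lysosomal protease Ctsl.

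The I-PpoI library also held 72 Epcam-positive cells that met every limit except Krt19, which was at 0, a direct look at what Krt19 adds to Lcn2. They were shallower (median 6552.5 against 18551 UMIs) and had more mt- UMIs (14.6% against 7.50%). Of 9545 measured genes 1065 (11.2%) were higher and 282 (2.95%) lower in the gate, a split of 664 and 534 under median-of-ratios scaling. Lcn2 itself stood at 5527 against 4539 CPM, and Wfdc2 and Spp1 had log2 ratios of -0.24 and -0.81, so these 3 genes did not set the 2 groups apart past 2-fold. The keratins did: 9 of 9 measured were higher, and 6 of 6 without the 6 urothelium-assigned cells, which held all Krt5, Krt14 and Krt15 UMIs of the gate. Krt18 stood at 1314 against 156 CPM (ratio 8.41, 7.02 to 10.1), Krt8 at 1307 against 396 CPM (ratio 3.30, 2.94 to 3.72) and Krt7 at 872 against 316 CPM (ratio 2.76, 2.41 to 3.16). Single cells weighed in these sums. A gated principal cell held 871 of the 2862 Krt18 UMIs and 607 Krt8 UMIs, and a gated thick ascending limb cell held 237 and 465. The ratios without these cells were not tested. S100a6 (ratio 5.91, 5.50 to 6.37), Cldn4 (ratio 3.44, 2.79 to 4.28), Anxa1 (ratio 3.87, 3.03 to 5.02) and Clu (ratio 2.36, 2.25 to 2.48) were higher, and Sox9 fell short of 2-fold (0.84 on the log2 scale). Of the injury and repair list 8 of 22 were higher and none lower. The groups differed in segment, with 8 of 9 principal cell genes higher and 5 of 9 thick ascending limb genes lower in the gate, and the part of that make-up in the differences was not tested here.

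Cell cycle genes were lower in the gate than in the cells without Krt19, in 7 of 10 measured (median log2 ratio -2.34). Ube2c had 4 against 74 UMIs, Top2a 6 against 38 UMIs and Mki67 17 against 33 UMIs, in 3, 5 and 3 of 89 gated cells against 5 of 72 each. These UMIs thus rest on a handful of cells in either group. Interferon response genes were higher in 7 of 15, led by Ifitm3, which restricts virus entry (164 against 15.1 CPM, ratio 10.9, 6.14 to 21.2). Matrix and profibrotic genes were higher in 10 of 18. Secreted defence genes went both ways, with Spink12 higher (719 UMIs, 287 of them in 1 cell, against 10) and Wfdc15b lower (52.8 against 151 CPM). Gpx3, the secreted glutathione peroxidase, was lower (123 against 998 CPM, ratio 0.123, 0.106 to 0.141, and 79.2 CPM without its highest cell). Of 11 NF-kB genes 0 were past 2-fold, and of 17 immediate early and heat shock genes 1 was higher.

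**Figure D4:**
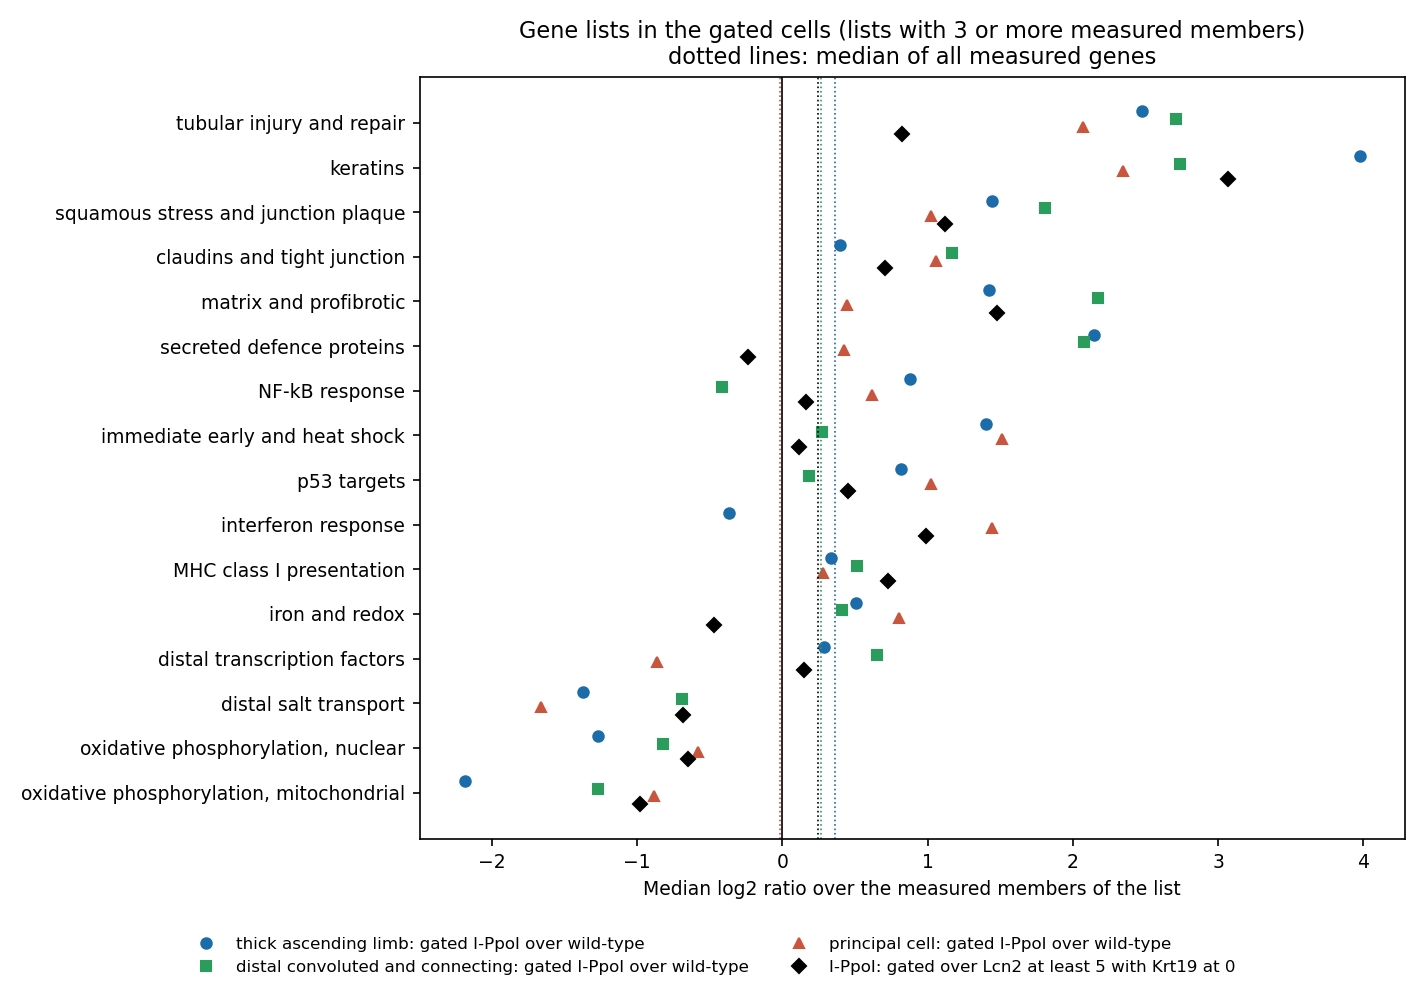
Points give the median log2 ratio over the measured members of each gene list in the 3 segment comparisons with wild type and in the comparison with I-PpoI cells lacking Krt19 UMIs; dotted lines give the median of all measured genes. Injury and repair (2.48, 2.71 and 2.07 against wild type) and keratins lie to the right in all 4, distal salt transport (-1.37, -0.69 and -1.66) and oxidative phosphorylation to the left.

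Against 61 cells of a plain thick ascending limb gate in the I-PpoI library (Umod at least 5, Slc12a1 at least 1, not gated), 1568 (16.9%) of 9273 measured genes were higher and 377 (4.07%) lower in the gate, or 990 and 778 by median-of-ratios scaling. These cells had a median of 3802 UMIs and 20.3% mt- UMIs. The first genes by the bound of the interval were those of other segments (Calb1, S100g, Slc12a3, Aqp2, Fxyd4), Krt15 and Sprr2f, and Basp1, a membrane-bound signalling protein (657 against 1 UMIs). Injury and repair genes were higher in 13 of 22 and keratins in 9 of 9, or in 13 of 22 and 6 of 6 without the urothelium-assigned cells. Also without those cells, parietal epithelium genes were higher in 4 of 5 measured and lower in 0, and thin limb genes higher in 3 of 4 and lower in 1. Against Havcr1-positive cells, parietal epithelium genes were lower in 4 of 5 and higher in 0, and thin limb genes lower in 1 of 5 and higher in 1. Lower genes included Egf (8 against 93 UMIs), the sodium-proton exchanger Slc9a3 (12 against 53 UMIs) and Ube2c (4 against 68 UMIs). Endothelial genes Fabp4 and Gpihbp1 were lower too, with the endothelium list lower in 6 of 6 measured in the gated cells. The principal cell gate, set on Aqp2 with Fxyd4 or Hsd11b2, held only 3 I-PpoI cells, against which 2485 (28.0%) of 8886 measured genes were higher and 1054 (11.9%) lower. S100a6 led the higher genes (5716 against 11.1 CPM), and among the lower ones were Kl (116 against 2024 CPM), Calb1 (958 against 14687 CPM) and S100g (6043 against 85987 CPM). Kl and Calb1 are in the distal convoluted and connecting tubule list, so these 3 cells were not plain principal cells by their markers.

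Havcr1-positive cells of the I-PpoI library, 164 in number, were the other injured epithelium at hand, with similar depth (median 15156 UMIs) and mt- share (7.02%). Of 11082 measured genes 1328 (12.0%) were higher and 1193 (10.8%) lower in the gate. All 10 proximal tubule genes were lower, Havcr1 being the gene that separated the groups, and injury and repair genes differed in both directions: 8 of 23 were higher, 3 lower and 12 within 2-fold (median log2 ratio 0.27, against 0.13 over all measured genes). Spp1 was among the lower ones (22269 against 55985 CPM). Keratins were higher in 9 of 10 (6 of 7 without the urothelium-assigned cells) and secreted defence genes in 8 of 9, with Wfdc2 at 4266 against 947 CPM (ratio 4.50, 4.33 to 4.68). Complement genes were lower in 8 of 10 (median -4.04) and MHC class II genes in 7 of 7 (-4.44). Markers of other cells moved with them: neutrophil genes were lower in 3 of 3 measured (-4.76), fibroblast and mural genes in 4 of 5 (-4.10) and erythroid genes in 4 of 4 (-6.47), and their part in the result was not tested. Oxidative phosphorylation genes did not pass 2-fold in either direction (0 of 20 nuclear-encoded and 0 of 13 mitochondrially encoded).

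The gated cells of both libraries were also compared directly, 89 against 3. Of 8985 measured genes 1449 (16.1%) were higher in I-PpoI and 1468 (16.3%) lower. All 3 wild-type cells were assigned to principal cell, so condition and segment cannot be told apart here. The genes highest against wild type were segment products at 0 in the 3 cells: S100g, an intestinal-type calcium buffer (13162 UMIs), Umod (3783), Klk1 (2373), Slc12a1 (1337) and Slc12a3 (683, with 285 in 1 cell). The lower ones were principal cell genes, with Aqp2 at 237 against 9313 CPM, Aqp4 at 34.4 against 1476 CPM, Fxyd4 at 236 against 7716 CPM and the prostaglandin receptor Ptger1 at 3 against 41 UMIs. Clu does not mark a single segment and stood at 5711 against 85.6 CPM (ratio 66.7, 38.2 to 129). Ly6a, a stem cell and interferon-linked surface protein, stood at 2338 against 143 CPM (ratio 16.4, 10.6 to 26.9), Klf4, an epithelial differentiation factor, had 554 against 0 UMIs, Sprr1a 582 against 0 UMIs, Spink12 719 against 0 UMIs and Basp1 657 against 0 UMIs. The shallowest wild-type cell (14957 UMIs) lacked Aqp2 and held 445 of the 497 Spp1 UMIs of the 3. Against all other kept barcodes of their own library, gated cells of both libraries were higher in Krt18, Cldn4, Muc1, Ehf (an epithelial transcription factor) and Trp63 (p63, of basal epithelial cells, seen in 6 of 89 and 1 of 3 gated cells, with 29 of its 43 UMIs in 1 I-PpoI cell), as a description of what the gate selected.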

How the data were processed

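The deposited matrices hold raw UMI counts per gene and barcode of 1 library per group. Per the labels' protocols, the authors made Single Cell 3' v3.1 libraries and named Cell Ranger 3.1 with an mm10 reference, and Seurat 3 for later steps. Per the file headers, these counts came from Cell Ranger 6.0.2. How barcodes were called and filtered upstream is not given in the sources used here.

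Counts were read with Python 3.11.15, numpy 2.4.6 and scipy 1.17.1. Kept barcodes (at least 200 genes, at most 50% mt- UMIs) summed to 36274499 UMIs in the I-PpoI and 20476446 in the wild-type library. UMIs were summed per arm, since cells are not replicates, and scaled to CPM. Levels carry exact Poisson, ratios exact conditional binomial and shares exact Clopper-Pearson 95% intervals. A gene was past 2-fold by its CPM ratio with 0.5 UMIs added to each sum. An arm at 0 was set to 3 UMIs for a bound, over the whole arm. No p-value was computed, because each group had 1 library. Doublets were kept: Scrublet scores (scanpy 1.11.5) put 6 of the 89 and 1 of the 3 gated cells in the highest 4% of their library, and leaving these barcodes out was an alternative.

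The gate, its markers and all 23 gene lists were chosen with earlier results of these data known, so list counts are descriptions beside the same counts over all measured genes. Genes named were members of these lists or led a comparison by the bound of the interval nearest to 1 (12 each way between the libraries' gated cells, 8 each way against other gates, 15 against all other kept barcodes). Genes named elsewhere were chosen after their values were seen, as was the comparison by segment. The interval script was tested on simulated counts.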

Additional observations from a re-analysis of the deposited data

How the results depend on the processing

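The 138 results were recomputed under 17 alternatives (15 planned, 2 added after seeing the data, beside the comparison by segment). Leaving out the highest cell of a gene or the urothelium-assigned cells, also added, is given beside its values. Of 2017 values 1696 stayed within their limits, 321 moved and none of those past 2-fold changed direction. The limits were the counting-error interval for shares and single genes, and a factor of 1.5 for counts of genes. For list medians they came from the spread over the list's members, which is not counting error. Among single genes and secondary lists 291 of 1712 moved, 287 with their sign kept. No paired analysis was possible because each group is 1 library and no test was made.

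Depth limits the gate most. Thinning to 2000 UMIs moved its share from 2.18% to 1.01% in the I-PpoI library and to 0 in the wild-type library, so that neither the ratio of shares nor the comparison of the 2 libraries' gated cells had a value there. It moved the make-up to 55.9% principal cell and 5.88% thick ascending limb. Thinned counts set the gate only, among barcodes of at least 2000 UMIs, while segments and gene sums were taken from all counts. Asking for 2 Krt19 UMIs gave 1.69%.

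Counts of genes past 2-fold depend on scaling and on the limit on UMIs per gene. In thick ascending limb the higher genes were 741 with at most 25% mt- UMIs, 1032 by median of ratios, 938 without mt- UMIs and Lcn2 in the total, 1148 with at least 50 UMIs and 4195 with no limit. The lower ones were 1489 after thinning, with 2 gated cells of this segment, 1339 without mt- UMIs and Lcn2, and 1531 with no limit. In principal cells a limit of 50 gave 326 higher and 374 lower, and no limit 3134 and 2637. Between the libraries' gated cells, a limit of 50 gave 799 and 803, and no limit 5082 lower. Against the thick ascending limb gate the higher genes were 696 after thinning, 990 by median of ratios, 910 with at least 50 UMIs, 2502 with no limit and 3138 with equal weight per cell, and the lower ones 778 by median of ratios, 152 with at least 50 UMIs and 1710 with no limit. The thick ascending limb medians (log2) moved to -2.52 for salt transport after thinning, on the same 2 cells, and to 1.54 for injury and repair with at most 25% mt- UMIs. The cause of these moves was not tested.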

Other observations

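A few genes outside the main groups, named after their values were seen, went the same way in all 3 segments when gated I-PpoI cells were set against wild-type cells. Tfrc, the transferrin receptor that brings iron into cells, stood at 12.8 against 128 CPM in thick ascending limb, 43.1 against 361 CPM in distal convoluted and connecting tubule and 5.30 against 83.4 CPM in principal cells. Mt2, a metallothionein, stood at 1115 against 241 CPM in thick ascending limb, 908 against 268 CPM in distal convoluted and connecting tubule and 339 against 27.1 CPM in principal cells, and Sod2, the mitochondrial superoxide dismutase, at 166 against 454 CPM in thick ascending limb, 233 against 571 CPM in distal convoluted and connecting tubule and 147 against 368 CPM in principal cells. Hbegf, a membrane-shed ligand of the EGF receptor, stood at 195 against 34.9 CPM in thick ascending limb, 203 against 10.3 CPM in distal convoluted and connecting tubule (55.2 CPM without its highest cell) and 314 against 45.1 CPM in principal cells (185 without it), and Elf3, an epithelial transcription factor, at 135 against 24.7 CPM in thick ascending limb, 96.3 against 22.7 CPM in distal convoluted and connecting tubule and 401 against 58.6 CPM in principal cells. Each value is past 2-fold, and each comes from 1 library per group.

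Gated I-PpoI cells were also read by their own Lcn2 count, 18 cells with 5 to 19 UMIs, 32 with 20 to 99 and 39 with 100 or more, with medians of 6640.5, 14586 and 29888 UMIs in all. Clu stood at 3921, 4178 and 6523 CPM in these ranges and Spp1 at 16104, 18509.9 and 24446. Wfdc2 was level at 4375, 4332 and 4228 CPM, and Krt8 stood at 710.5, 1887 and 1135 CPM, or 528, 1186 and 759.7 without the highest cell of each range, the middle one holding 465 of 1104 UMIs. Depth and segment both move with these ranges. The principal cells, highest of the sub-groups in Lcn2 and in Clu, lay mostly in the highest range. The part of depth and of segment was not tested.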
